A study of Mus musculus with 4 samples.

Results

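Metallothionein and zinc transporter genes were followed in peritoneal macrophages of the mouse after 6 h with 500 µM of palmitic acid, oleic acid or linoleic acid, or with vehicle. The group is a list of 10 genes, Mt1, Mt2, Mtf1, Slc30a1, Slc30a4, Slc30a5, Slc30a7, Slc39a1, Slc39a10 and Slc39a14, with no threshold on their values. All 10 were among the 19938 genes measured by a probe with exactly 1 gene. All 10 were also among the 11174 genes kept for counting, whose highest value over the 4 arrays reached the median of all values, log2 7.09.

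Donor animals were wild type C57BL/6 mice of 8 to 12 weeks, and 1 mL of 4% thioglycolate, injected 3 days before harvest, recruited the cells to the peritoneal cavity. Cells that did not adhere were washed off 3 h after plating. The control was labelled as bovine serum albumin (BSA) without fatty acid, and its vehicle held ethanol and KOH according to the protocol of treatment. The 3 fatty acids were complexed with BSA: palmitic acid has 16 carbons and 0 double bonds, oleic acid 18 carbons and 1 double bond, and linoleic acid 18 carbons and 2 double bonds. RNA of 3 samples was pooled per group and run on 1 array, so each group has 1 measurement, and the labels leave unsaid whether a pool came from several mice. No spread between samples can be estimated, and no difference below has a test or an interval.

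Zinc is held in the cytosol by metallothioneins, small cysteine-rich proteins that bind zinc and copper and that also react with oxidants. Transporters of the ZnT family (Slc30a genes) carry zinc out of the cytosol, across the plasma membrane or into organelles, and those of the ZIP family (Slc39a genes) carry it in. The zinc-sensing transcription factor MTF1 binds metal response elements and drives the metallothionein genes and Slc30a1 when zinc rises. Macrophages use these proteins to withhold zinc from microbes or to load vesicles with it, and metallothionein genes are also induced by inflammatory signals and glucocorticoids.

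Promoters are shown first, because Mt1, Mt2 and Slc30a1 are the textbook targets of MTF1 and their values are set side by side below. The core of the metal response element was searched as TGCACNC and TGCGCNC on both strands, and overlapping matches were counted once. The 250 bases before each start were taken from RefSeq (build GRCm38.p6), which gave 10 promoters for 9 of the 10 genes. Slc39a10 had more than 1 promoter, and Slc39a14 had no entry. A match before the start was found for 5 of these 9 genes, in 5 of the 10 promoters. Of 32851 promoters of the same length, 21.4% held at least 1 match and 0.77% held over 2. The list holds textbook targets of MTF1, so its count cannot be read as an excess over that share. Capitals mark the matches in the sequences that follow, written 5′ to 3′ on the strand of the gene. Mt2 is shown in full, at chr8:94172368-94172617 (plus strand), because it held 3 matches.
Mt2 promoter: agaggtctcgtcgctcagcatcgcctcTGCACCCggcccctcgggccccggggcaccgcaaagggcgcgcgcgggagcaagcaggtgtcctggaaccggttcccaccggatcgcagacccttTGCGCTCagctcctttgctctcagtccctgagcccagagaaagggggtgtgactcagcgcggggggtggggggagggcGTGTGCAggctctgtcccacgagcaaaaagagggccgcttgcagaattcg

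For Mt1, Slc30a1 and Slc30a4, stretches of 30 bases around matches are shown. The stretches of Mt1 lie at chr8:94179055-94179084 and, past the start used in the table, at chr8:94179091-94179120 (plus strand). The stretch of Slc30a1 before the start lies at chr1:191906727-191906756 and that past the start at chr1:191906800-191906829 (plus strand). Those of Slc30a4 lie at chr2:122702873-122702902 and chr2:122702737-122702766 (minus strand). Mt2 and Slc30a4 each held 1 further match, not shown, that lies in or reaches into the bases past the start. A match in these letters is a description and was not tested as a binding site. Starts downstream of the one used were not looked for, so a match past the start need not lie within the transcript.
Mt1, before the start: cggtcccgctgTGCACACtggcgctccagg
Mt1, past the start: TGCACTCcgcccgaaaagTGCGCTCggctc
Slc30a1, before the start: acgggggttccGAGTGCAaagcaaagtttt
Slc30a1, past the start: gcctccgggccGAGCGCAgtcgccgcggac
Slc30a4, farther from the start: ccgggggctcaGAGCGCAcaagacctcaga
Slc30a4, nearer to the start: tcgcgcctcgcGGGCGCAcgcgccgcctcg

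The promoter table held no match before the start for Mtf1, Slc30a7, Slc39a1 and Slc39a10, which says only that these letters are not in that window. Slc30a5 held 1. The gene span in RefSeq begins upstream of a start used here for 6 of the 9 genes, Mt1, Slc30a1, Slc30a5, Slc30a7, Slc39a1 and Slc39a10. These genes thus have a further annotated start upstream, at a distance that was not measured. Mt1 and Mt2 are neighbours on chromosome 8, next to Mt3 and Mt4.

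Mt1 and Mt2, the metallothionein genes of the list, were lowest in the palmitic acid array. Mt2, at log2 12.53 in the control, was at 11.99 with palmitic, 12.72 with oleic and 12.59 with linoleic acid. The palmitic acid value stood below the other 3, and oleic and linoleic acid lay within 0.18 of the control. The difference of Mt2 from the control was -0.54 with palmitic acid, 1.45-fold lower and short of the 1.5-fold (log2 0.58) used for counting. Palmitic acid was 1.65-fold lower than oleic acid for Mt2 and 1.51-fold lower than linoleic acid. Absolute differences at least as large as that of Mt2 were seen in 4.31% of kept genes for palmitic acid against the control and in 1.85% for palmitic against oleic acid.

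Mt1, which codes for the closely related metallothionein 1, was at log2 11.64 in the control array, 11.27 with palmitic, 11.72 with oleic and 11.64 with linoleic acid. The order of the arrays was low with palmitic acid and highest with oleic acid, as for Mt2. The difference from the control was -0.37 with palmitic, 0.08 with oleic and -0.0033 with linoleic acid. Palmitic acid was 1.37-fold lower than oleic acid. The coding sequences of both genes are alike, and whether each probe also binds the other's transcript is not known here, so the 2 values may not be separate measurements.

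The arrays correlated between r = 0.991 and r = 0.996 over all 35556 probes. All 8 macrophage markers were kept, with Cd68 at log2 13.65 and Adgre1 at 12.98 in the control, and their summed linear signal was 57181 in the control array, 55751 with palmitic, 60204 with oleic and 57238 with linoleic acid. Of these markers, Fcgr1, an Fc receptor gene, was past 1.5-fold, at -0.66 from the control with palmitic and 0.65 with oleic acid, low and high in the same arrays as Mt2. Mertk, an efferocytosis receptor gene, was 0.51 above the control with palmitic acid. Of 10 fibroblast and mesothelial markers, 8 were kept. All 8 lay below the control in the palmitic acid array, while 50.1% of all kept genes lay above it. Their median difference there was -0.25, but they were uneven. Pdgfrb (-1.29) and Pdgfra (-0.86) were the 2 past 1.5-fold, and the rest lay between -0.28 (Col3a1) and -0.15 (Msln). Pdgfrb was also at -0.71 from the control with oleic acid, and at 0.16 with linoleic acid. The summed linear signal of the fibroblast and mesothelial markers was 5545 in the control array, 4147 with palmitic, 5058 with oleic and 5904 with linoleic acid. Lum and Upk3b were dim in every array. Of the markers of B cells, T cells, neutrophils, eosinophils and mast cells, 1 per list was kept, and Cd79a, Ms4a1, Cd3d, Cd3g, Ly6g, S100a9, Mpo, Elane, Epx and Cpa3 were dim in every array. The kept mast cell marker, Kit, was at log2 7.30 in the control array, 6.85 with palmitic, 6.85 with oleic and 7.64 with linoleic acid. It reached the filter of 7.09 only in the control and linoleic acid arrays. Its differences from the control, near that filter, were -0.45 with palmitic, -0.46 with oleic and 0.34 with linoleic acid. Palmitic acid lay at -0.79 from linoleic acid. The mast cell markers that were not kept, Cpa3, Tpsb2 and Mcpt4, lay at 0.0088, -0.04 and 0.06 from the control with palmitic acid. Fcgr1 and the fibroblast and mesothelial markers were lower in the palmitic acid array together with Mt1, Mt2 and Slc39a14, as was the dim Kit. The part of these markers in the values was not tested. In such bulk RNA, fewer cells of a type and less RNA per cell cannot be told apart.

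Mtf1, the zinc-sensing factor itself, differed the other way. It was at log2 9.11 in the control array, 9.46 with palmitic, 9.15 with oleic and 9.30 with linoleic acid. Its value was thus highest with palmitic acid, 0.35 above the control, a difference reached by 12.0% of kept genes in that comparison. With linoleic acid it was 0.20 above the control.

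Slc30a1 had the largest difference from the control of the 10 genes. It codes for ZnT1, the exporter that moves zinc across the plasma membrane. Its log2 value was 8.65 in the control array, 9.55 with palmitic, 8.98 with oleic and 8.74 with linoleic acid. All 3 fatty acid arrays lay above the control, palmitic acid by 0.90 (1.87-fold), oleic acid by 0.33 (1.25-fold) and linoleic acid by 0.09. Differences as large were seen in 1.03% of kept genes for palmitic acid and in 3.69% for oleic acid. The 3 values subtract the same control array and are not independent. Between fatty acids, Slc30a1 was 1.75-fold higher with palmitic than with linoleic acid and 1.49-fold higher with palmitic than with oleic acid.

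**Figure D1:**
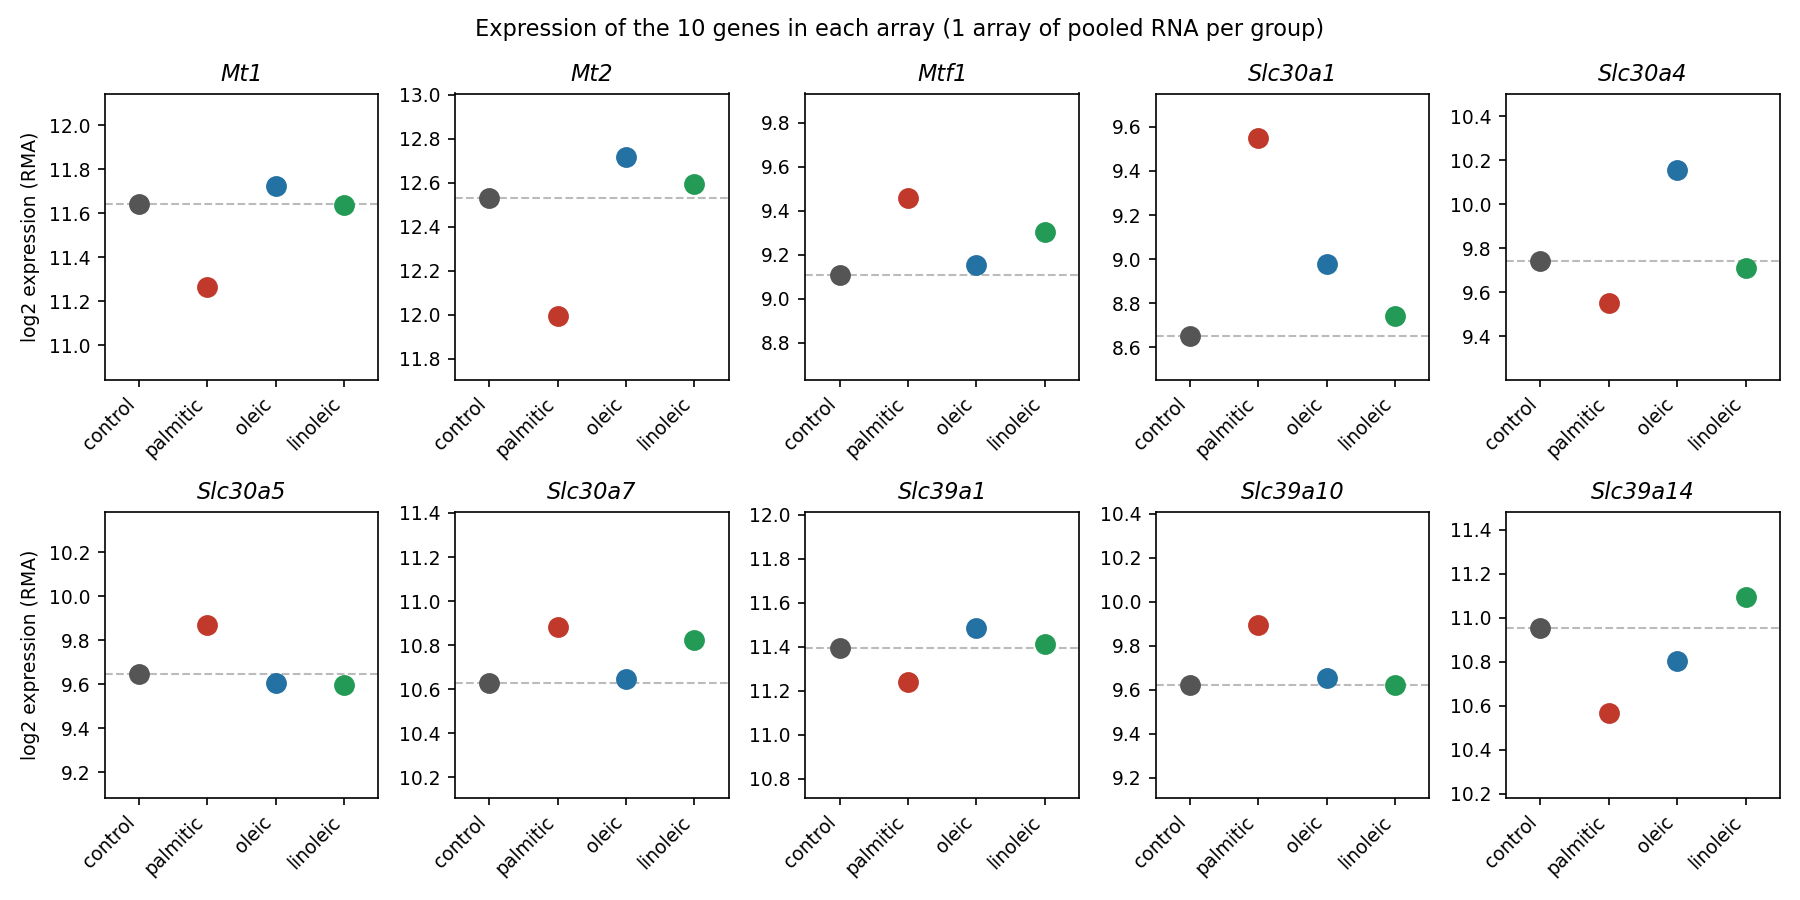
Log2 expression (y axis) of each of the 10 genes in the control, palmitic, oleic and linoleic acid arrays (x axis), with 1 point per array, a dashed line at the control and the same height of scale in every panel. The palmitic acid point is the lowest for Mt1 and Mt2 and the highest for Mtf1 and Slc30a1.

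The other ZnT genes differed less from the control, and in different arrays. Slc30a4 codes for ZnT4, a transporter of endosomes and secretory vesicles. It was at log2 9.74 in the control array, 9.55 with palmitic, 10.16 with oleic and 9.71 with linoleic acid. The oleic acid array was the highest for this gene, 0.41 above the control, which 1.92% of kept genes matched or exceeded. Palmitic acid was 1.52-fold lower than oleic acid, just past the fold used for counting, and linoleic acid was 1.36-fold lower than oleic acid.

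Slc30a5 and Slc30a7 code for transporters that supply zinc to enzymes of the early secretory pathway. Slc30a5 was at log2 9.65 in the control array, 9.87 with palmitic, 9.61 with oleic and 9.60 with linoleic acid. It was highest with palmitic acid, by 0.22 over the control, and the other 3 arrays lay close to each other. Slc30a7 was at 10.63 in the control array, 10.88 with palmitic, 10.65 with oleic and 10.82 with linoleic acid. Here palmitic and linoleic acid lay together above the control and oleic acid, with differences from the control of 0.25 and 0.19.

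The ZIP importer genes went both ways in the palmitic acid array. Slc39a14 codes for ZIP14, an importer of zinc that also carries iron and manganese. It was at log2 10.95 in the control array, 10.57 with palmitic, 10.80 with oleic and 11.09 with linoleic acid. The value was lowest with palmitic acid, at -0.39 from the control, and highest with linoleic acid. Palmitic acid was 1.44-fold lower than linoleic acid, a difference that 4.63% of kept genes matched or exceeded.

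Slc39a1 codes for ZIP1, a widely expressed importer of the plasma membrane. Averaged over its 2 probes it was at log2 11.39 in the control array, 11.24 with palmitic, 11.48 with oleic and 11.42 with linoleic acid. Both probes were lowest with palmitic acid, at -0.22 and -0.09 from the control, but they had opposite signs for linoleic acid (-0.04 and 0.08). Slc39a10 codes for ZIP10, another importer at the plasma membrane. It was at 9.62 in the control array, 9.89 with palmitic, 9.65 with oleic and 9.62 with linoleic acid. Palmitic acid stood above the other 3 arrays, by 0.28 over the control.

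The palmitic acid array was the lowest or the highest of the 4 for all 10 genes, lowest for 5 and highest for 5. Over all kept genes it was the lowest or the highest in 68.6%. The oleic acid array was the highest for 4 of the 10 genes and the lowest for 0, beside 26.9% and 23.9% of all kept genes. The control array was the lowest for 4 and the highest for 0, beside 24.6% and 13.5%. The linoleic acid array was the lowest or the highest for 2, beside 42.6%.

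**Figure D2:**
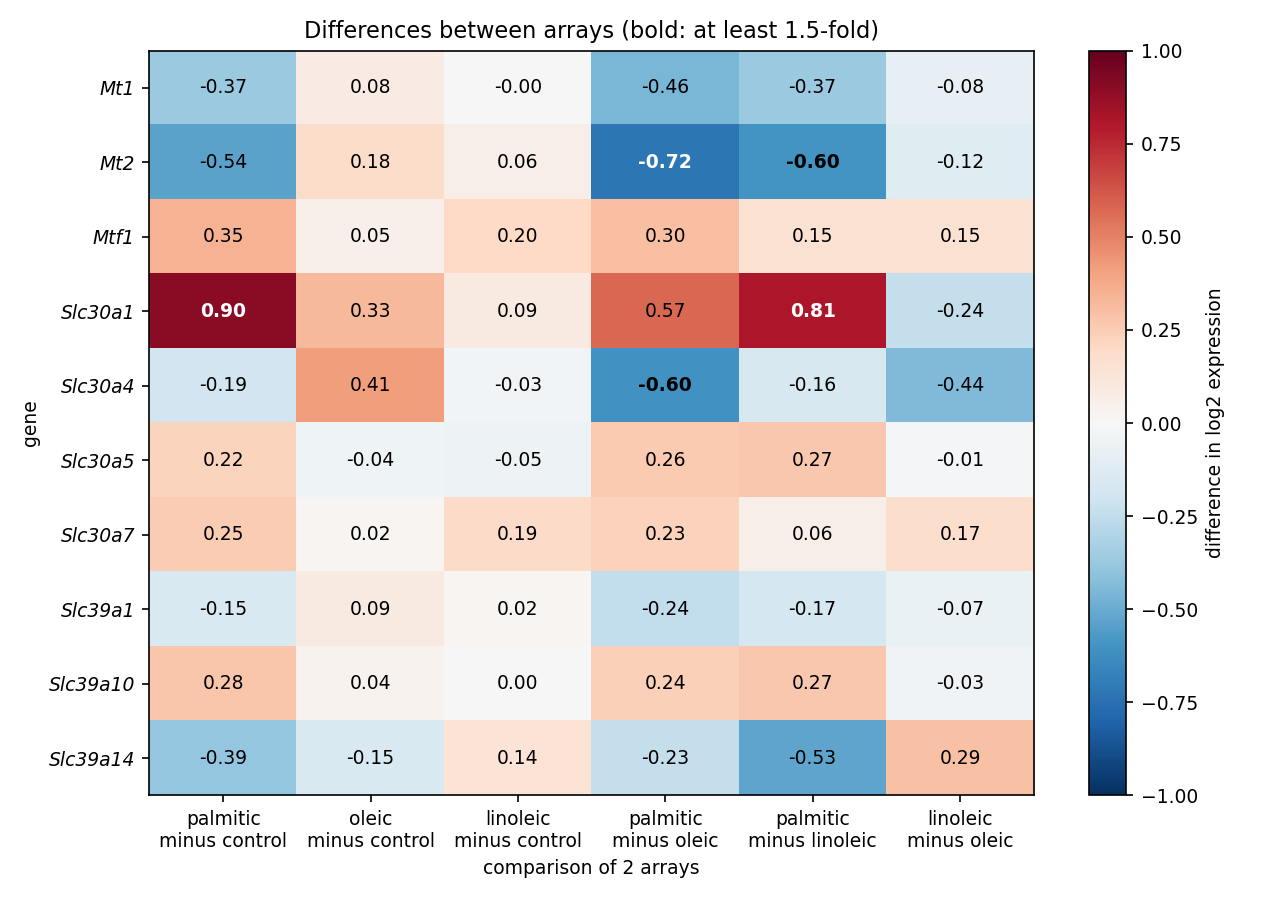
Differences in log2 expression for the 10 genes (rows) in 6 comparisons of 2 arrays (columns), coloured from blue (lower in the first array named) to red (higher) and printed in bold where at least 1.5-fold. The 3 comparisons with palmitic acid as the first array hold all 5 bold values.

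Set against the control, palmitic acid was at least 1.5-fold apart at 1 of the 10 genes, Slc30a1, beside 3.57% of all kept genes. Of the 10 genes, 5 lay above the control and 5 below, with a median difference of 0.03 beside 0.00059 over all kept genes. The median hides the split between Slc30a1 (0.90), Mtf1 (0.35), Slc39a10, Slc30a7 and Slc30a5 above the control and Mt2 (-0.54), Slc39a14 (-0.39), Mt1 (-0.37), Slc30a4 and Slc39a1 below it.

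Oleic acid against the control had 0 of the 10 genes at least 1.5-fold apart, beside 0.716% of all kept genes. The highest were Slc30a4 (0.41) and Slc30a1 (0.33), and Slc39a14 was the lowest (-0.15). The median over the 10 genes was 0.06, beside 0.01 over all kept genes. Linoleic acid against the control also had 0, beside 0.0716% of all kept genes. Its differences ran from -0.05 at Slc30a5 to 0.20 at Mtf1, with a median of 0.04 that equalled the median of all kept genes to 2 decimals.

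The fatty acids were compared in 3 pairs, all at 500 µM and 6 h. Palmitic and oleic acid differ in chain length and in 1 double bond. They were at least 1.5-fold apart at Mt2 and Slc30a4, 2 of the 10 genes, both lower with palmitic acid, beside 3.47% of all kept genes. Slc30a1 lay just short, at 0.57. The median over the 10 genes was -0.00079, beside -0.02 over all kept genes.

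Palmitic and linoleic acid were at least 1.5-fold apart at Slc30a1, higher with palmitic acid, and at Mt2, lower with palmitic acid, 2 of the 10 genes beside 3.6% of all kept genes. The Mt2 difference of -0.60 became -0.55, short of 1.5-fold, when each array was centred on its median. Linoleic and oleic acid, which differ by 1 double bond at the same chain length, had 0 of the 10 genes at least 1.5-fold apart, beside 1.05% of all kept genes. The widest difference of that pair was at Slc30a4, -0.44, with linoleic acid lower, followed by Slc39a14 at 0.29 and Slc30a1 at -0.24. Counts of 0 to 2 among 10 genes are too small to set the list apart from these shares, and no interval of a difference can be had.

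**Figure D3:**
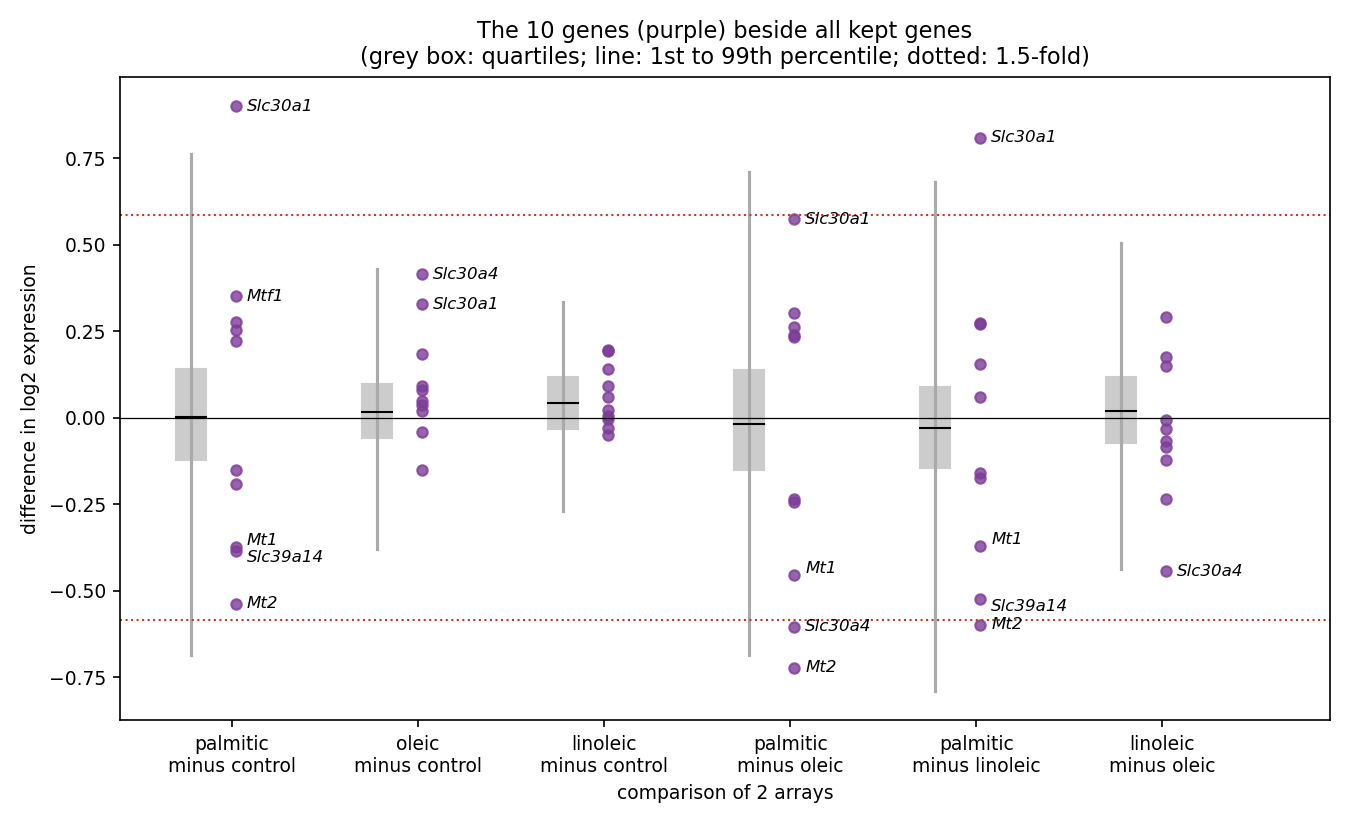
Differences in log2 expression (y axis) in 6 comparisons of 2 arrays (x axis), with the 10 genes as purple points beside all 11174 kept genes, whose quartiles are a grey box and whose 1st to 99th percentiles are a grey line. Slc30a1 lies above the grey line for palmitic acid against the control and against linoleic acid, and below it lie Mt2 for palmitic against oleic acid and Slc30a4 for linoleic against oleic acid.

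The wider family was taken as a list of 29 genes, the metallothionein genes, the Slc30a and Slc39a families and Mtf1. All 29 were measured and 25 were kept; Slc30a2, Slc30a8, Slc39a12 and Mt4 were dim in every array. Only the members Slc30a1, Mt2 and Slc30a4 were at least 1.5-fold apart in any of the 6 comparisons, and 0 of the other 15 kept genes were, beside 5.99% of all kept genes. Counts of this size do not set the members apart from the rest of the family. For palmitic acid against the control the median of the 25 was 0.04, beside 0.00059 over all kept genes. Of the 25, 16 genes lay above the control and 9 below, beside 50.1% of all kept genes above it. Such counts are too small to set the family apart from that share. After a repeated quantile normalisation the family median was -0.0066, beside -0.04 over all kept genes.

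By function, the 8 kept ZnT genes had a median of 0.10 with palmitic acid, 6 of them above the control. The 13 kept ZIP genes had a median of 0.04, with 9 above the control. The genes named next were chosen after their values were seen. Slc39a7, which codes for the ZIP7 transporter that releases zinc from the endoplasmic reticulum, was at log2 9.76 in the control array, 10.27 with palmitic, 9.81 with oleic and 10.00 with linoleic acid. Its palmitic acid difference of 0.50 was the highest of the ZIP genes. Slc39a13, which codes for the intracellular transporter ZIP13, lay at -0.32 with palmitic acid. Slc39a8, which codes for ZIP8, an importer of the ZIP14 subfamily, was -0.33 from the control with oleic acid and -0.07 with palmitic acid. The brain-enriched Mt3 lay between -0.05 and 0.08 from the control in the 3 fatty acid arrays.

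**Figure D4:**
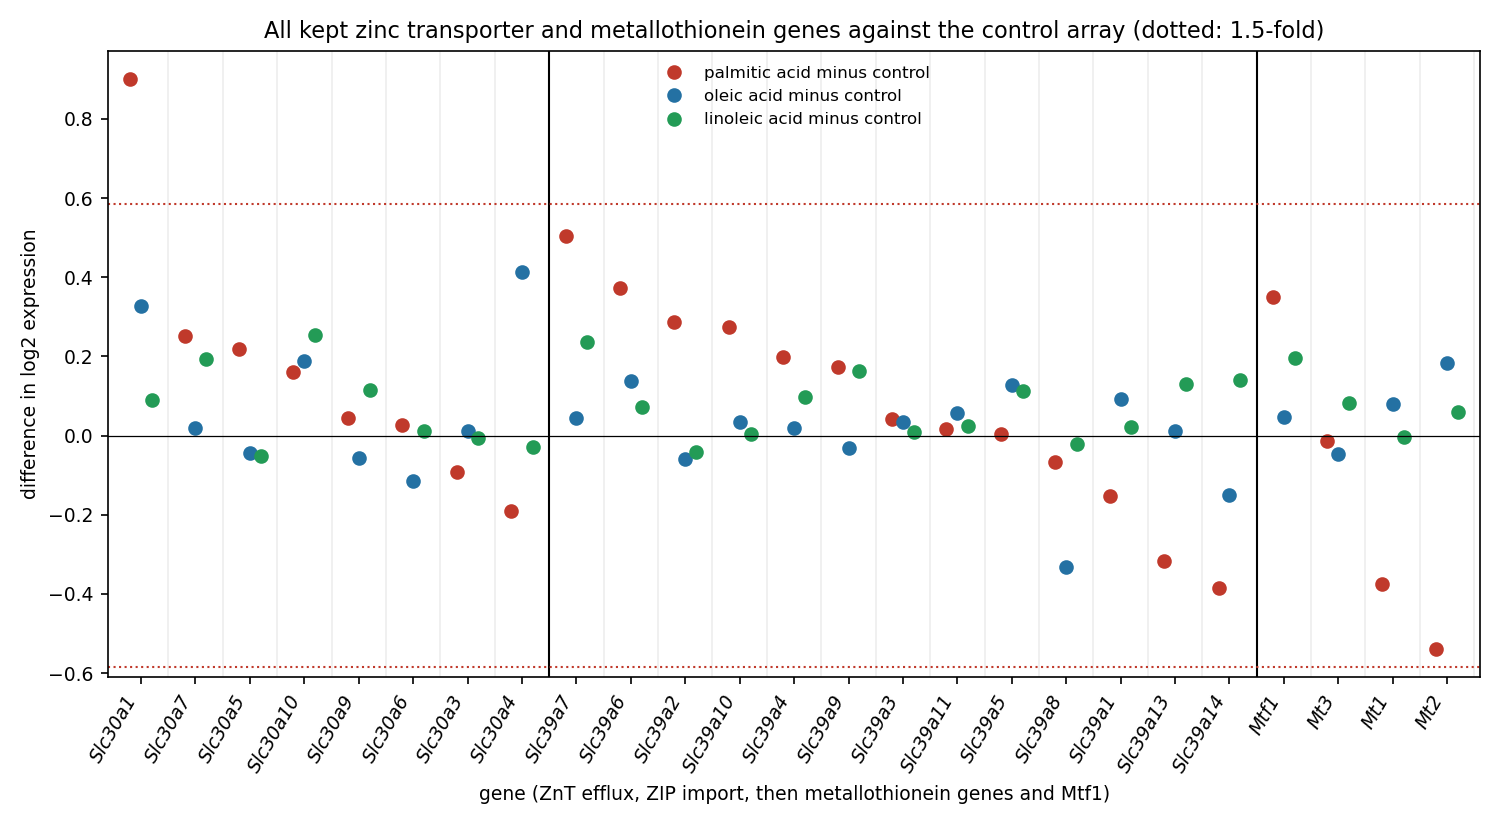
Difference from the control in log2 expression (y axis) for the 25 kept genes of the metallothionein and zinc transporter families (x axis), with red for palmitic, blue for oleic and green for linoleic acid and vertical lines between ZnT genes, ZIP genes and the rest. Slc30a1 with palmitic acid (0.90) is the only point past the dotted lines at 1.5-fold.

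Genes with the most similar pattern were found by the distance between the 3 differences from the control, over 10770 kept genes without predicted models. Slc30a1 was closest to Ugcg, the glucosylceramide synthase gene (0.92 with palmitic, 0.31 with oleic and 0.11 with linoleic acid), then to St6galnac4 and Gadd45g. Mt2 was closest to Glrx, which codes for the thiol oxidoreductase glutaredoxin (-0.56, 0.17 and 0.04), then to Pdgfb and Kcnn4. Slc30a4 was closest to Cd151, a tetraspanin gene (-0.20, 0.35 and -0.04), then to Entpd6 and Ptpn7. These distances rest on 4 arrays that share a control and describe likeness alone.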

How the data were processed

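Expression was measured on 4 Affymetrix arrays, 1 per group, each with RNA pooled from 3 samples, labelled from 100 ng of total RNA with an RNA integrity number above 8.0, per the labels' protocols. The values deposited by the authors are log2 values made with RMA, per the submitters' processing notes; RMA corrects background, quantile-normalises arrays together and summarises probes. Its version, the summary level and the build were not given in the sources used here, and the scale was taken as log2 from the range of values.

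Of 35556 probes, 21789 had exactly 1 gene in the platform annotation. Symbols were checked by Entrez ID against RefSeq (GRCm38.p6): 21698 matched and 0 were updated. Probes of a gene were averaged, and genes whose highest value reached the median of all values were kept. Log2 differences were taken gene by gene in 6 comparisons, and genes at least 1.5-fold apart were counted. With 1 array per group there is no test, and the number of arrays limits the precision. The counting code was run on simulated shifts well past the fold used, which checks the code and says nothing on these data. Named were the 10 genes, up to 4 genes of each list that were at least 1.5-fold apart in any comparison, and the 3 kept genes closest in pattern to each of the 10 that was so; further names, and the cell type markers given with values, were chosen after their values were seen. The members and lists were chosen with earlier results of these data known. Alternatives were 2 other scalings of the arrays, 3 other filters, the brightest probe of a gene, and values below the median set to it. Python 3.11.15, numpy 2.4.6, pandas 2.3.3 and matplotlib 3.10.9 were used.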

Additional observations from a re-analysis of the deposited data

How the results depend on the processing

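The counts of the 10 genes and of the 29-gene family at least 1.5-fold apart were the same under all 7 alternatives in 5 of the 6 comparisons. In palmitic against linoleic acid both counts were 2, and 1 when each array was centred on its median, because Mt2 went from -0.60 to -0.55. The Slc30a1 difference of palmitic acid from the control lay between 0.84 (repeated quantile normalisation) and 0.91 (arrays centred), and that of Mt2 between -0.57 and -0.53. Of the 60 differences of the 10 genes, 58 kept their sign with arrays centred, 59 with a repeated quantile normalisation and 59 with the brightest probe. Those that changed sign were Slc39a1 and Slc39a10 with linoleic acid against the control. Over all kept genes, linoleic acid against the control had 8 genes at least 1.5-fold apart, 29 with no filter and 4 with the filter at the 75th percentile. Family medians moved by less than 0.1 under every alternative, but they were small themselves and some changed sign. With a repeated quantile normalisation, palmitic acid against the control went from 0.04 to -0.0066, and linoleic against oleic acid from 0.02 to -0.05. With arrays centred, palmitic against linoleic acid went from -0.0066 to 0.04. No paired analysis was possible because each group has 1 array and the labels give no replicate numbers. All 10 genes lay above the filter in every array, and the number of arrays, with no replicate, limits every statement on a difference.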

Other observations

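Metallothioneins also bind copper, and genes of copper handling were listed beside the zinc genes. Of 14 listed genes 13 were measured and 12 kept; the other listed gene, Sco2, is not analysed here. Steap4, which codes for a metalloreductase of iron and copper, was at log2 8.26 in the control array, 7.67 with palmitic, 7.91 with oleic and 8.36 with linoleic acid. It was lower with palmitic acid by 1.5-fold or more against both the control (-0.60) and linoleic acid (-0.69). Sod3, the extracellular superoxide dismutase gene, was at 7.68, 7.25, 7.34 and 7.92 in the same order, and palmitic acid lay at -0.67 from linoleic acid. The high-affinity copper importer gene Slc31a1 and the copper pump gene Atp7a, named after their values were seen, lay at -0.09 and 0.21 from the control with palmitic acid. The list median with palmitic acid was -0.04, beside 0.00059 over all kept genes.

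Metallothionein genes are also targets of the glucocorticoid receptor. Other targets and the receptor gene Nr3c1 itself were listed, 8 genes in all, of which 7 were kept. In the palmitic acid array 6 of the 7 were above the control, beside 50.1% of all kept genes. The list median was 0.41 beside 0.00059 over all kept genes. Mt1 and Mt2 were below the control in that array. The count was also 6 of 7 with oleic acid (median 0.14) and with linoleic acid (median 0.07). Over all kept genes, 55.3% lay above the control with oleic acid (median 0.01) and 65.2% with linoleic acid (median 0.04). With oleic acid Mt1 (0.08) and Mt2 (0.18) were above the control. The part of glucocorticoid signalling in the Mt1 and Mt2 values was not tested. Dusp1, a MAP kinase phosphatase gene that many other stimuli also induce, was at log2 11.65 in the control array, 12.60 with palmitic, 12.52 with oleic and 11.84 with linoleic acid. Fkbp5, which codes for a chaperone partner of the receptor, was the kept gene below the control with palmitic acid. It was at 7.96 in the control array, 7.45 with palmitic, 8.04 with oleic and 8.03 with linoleic acid. Its palmitic acid value lay at -0.51 from the control. The kept gene below the control was Klf9 with oleic acid (-0.0054) and Sgk1 with linoleic acid (-0.01). Zbtb16, dim and not kept, lay at -0.27 with palmitic acid. Nr3c1, the receptor gene, also named after its values were seen, was 0.41 above the control with palmitic acid and 0.01 above with oleic acid. It is counted in the list though it is not listed as a target, and its palmitic acid value is the list median.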
